A study of Mus musculus with 6 samples.

Results

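The machinery that builds melanosomes and moves them to the cell edge was followed through 9 genes in mouse back skin exposed or not exposed to ultraviolet B light (UVB). The genes were Rab27a, Mlph, Myo5a, Sytl2, Rab32, Rab38, Hps1, Hps4 and Ap3b1. They were taken by gene name from the probes of the array that are not control spots. This gave 12 probes for 9 genes, of 36095 gene or transcript targets on the array. All mice were male C57BL/6, a strain with pigmented hair, and 6 to 8 weeks old, and no transgene or gene deletion is given in the labels. The back of every mouse was shaved. From 2 days later, 3 mice received UVB at 180 mJ/cm2 under anaesthesia, in 3 sessions a week for 2 weeks, while the other 3 were kept dark as controls. Total RNA of each skin was labelled with Cy3 and read on 1 Agilent array in 1 colour, so that each group held 3 arrays. The labels leave out how long after the last session skin was taken.

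Melanosomes are organelles related to lysosomes, in which melanocytes make and store melanin before handing it to keratinocytes. Rab32 and Rab38 are small GTPases that direct the vesicles carrying melanin-making enzymes to the growing melanosome. Hps1 and Hps4 together form BLOC-3, which activates both of them, and Ap3b1 is a subunit of AP-3, an adaptor that sorts cargo from endosomes. A mature melanosome is held at the cell periphery by Rab27a on its membrane, the linker melanophilin (Mlph) and the actin motor myosin Va (Myo5a). Sytl2, another partner of Rab27a, docks melanosomes at the plasma membrane. In mice, mutations in Rab27a, Mlph and Myo5a cause the coat colours ashen, leaden and dilute, and those in Rab38, Hps1, Hps4 and Ap3b1 cause chocolate, pale ear, light ear and pearl. Several of these genes also work outside pigment cells: Rab27a and Ap3b1, for example, serve the lytic granules of cytotoxic T cells.

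The arrays gave 62976 spots each, with 54.9% to 63.3% of the non-control spots well above background and 0 saturated. Levels are given as log2 of the processed signal minus the 75th percentile of the same array, so that 0 is the level of that percentile and 1 unit is a doubling. Genes were tested with limma over 24355 targets, and called at a Benjamini-Hochberg adjusted p under 0.05. Levels of different probes are not set against each other, since each probe has its own brightness. Precision is limited by having 3 arrays in a group.

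Of the 9 genes, 8 had a probe bright enough to test, and 2 of them, Rab32 and Rab27a, were lower in UVB-exposed skin. Of all targets, 7.01% were called lower, 5.55% higher and 12.6% in either direction. None of the 8 was called higher by limma, where 3 had a higher level at an unadjusted p under 0.05. The groups did not overlap for 5 of the 8, against 38.5% of all targets: all 3 UVB arrays lay above all 3 controls for Sytl2 and Rab38, and below them for Rab27a, Rab32 and Hps4. The median log2 fold change was -0.15 over the 8 genes and -0.04 over all targets, and the median size was 0.42 against 0.30. In whole skin, fewer cells of a type and less RNA per cell cannot be told apart.

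**Figure D1:**
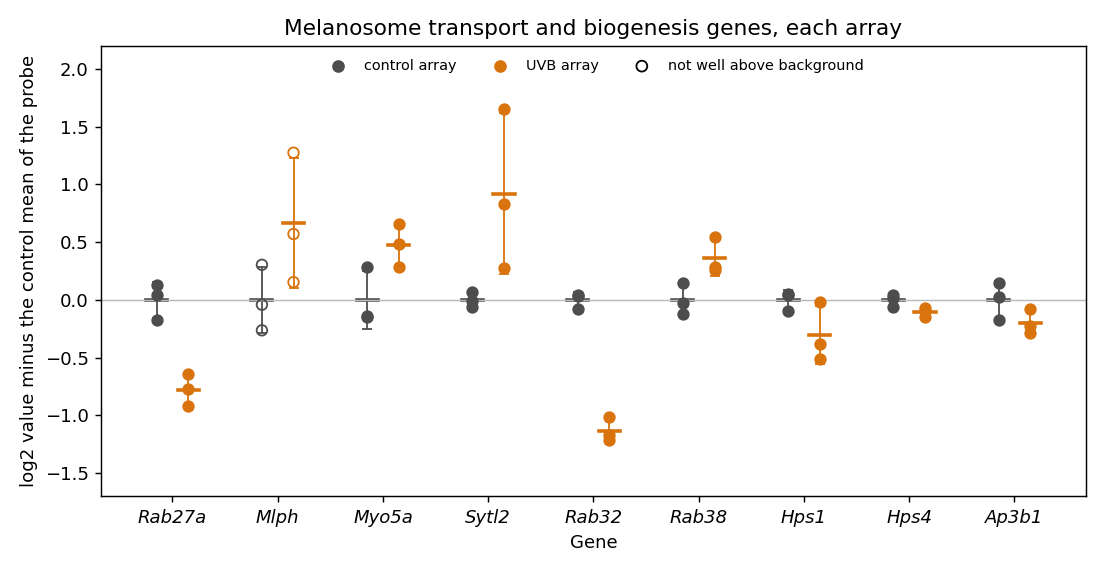
Log2 level of each of the 9 genes on each array, minus the control mean of its probe; points are single mice, horizontal bars are group means and vertical bars are SDs (n = 3), and open points were not well above background. Rab27a and Rab32 stand below all controls on every UVB array, with mean differences of -0.78 and -1.13, and the 3 UVB points of Sytl2 spread widely.

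Rab32 and Rab38, the pair of GTPases that share the delivery of melanosome cargo, stood on opposite sides of their controls. Rab32 was measured by a probe on chromosome 10 at 10265134 to 10265193, minus strand, of the mouse build mm9. Its level was 2.01, 2.02 and 1.89 in the 3 controls and 0.80, 0.96 and 0.76 in the 3 UVB arrays. The lowest control lay well clear of the highest UVB array. The log2 fold change was -1.13 ± 0.12 (SE, n = 3 per group, limma adjusted p = 0.00481), which left 45.6% of the control level. Rab32 passed under all 16 alternatives tried, including each array left out in turn, with log2 fold changes of -1.23 to -1.08. Alternatives that changed only the filter, the handling of probes or the error model refitted the same values. In those its fold change was fixed at -1.13 and only its adjusted p could move.

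Rab38 had a positive fold change that missed the threshold. Its level was 4.71, 4.62 and 4.88 in controls and 5.02, 5.28 and 4.999 after UVB. All UVB arrays lay above all controls, with a gap narrower than the SD of either group. The log2 fold change was 0.36 ± 0.14 with a 95% confidence interval, not adjusted for the number of genes, of 0.03 to 0.70 (limma adjusted p = 0.135). It was not called under any of the 16 alternatives.

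That value came from 1 of 2 Rab38 probes, and the other gave no signal. The probe with signal lies on chromosome 7 at 95639879 to 95639938 of mm9, plus strand, and read 9492 to 14254 in processed signal over the 6 arrays. The other starts 37 bases further on, at 95639916 to 95639975, shares 23 bases with it, and read 2.99 to 3.75, not well above background on any array. Stretches of 30 bases of each are shown because a gene judged from the other probe alone would have seemed unmeasured. Capitals in the second mark AATAAA and ATTAAA, the letters of common polyadenylation signals, which start at bases 32 and 40 of that probe and are absent from the first. AATAAA also starts at base 41 of the dimmer Hps4 probe, which read 1156 to 1978 and was well above background on all 6 arrays. The probe with signal held 65.0% A and T, and the other 78.3%.
Rab38 probe with signal, bases 1 to 30, chr7:95639879-95639908: ctctgactcaagctgcaggactcttctgta
Rab38 probe without signal, bases 26 to 55, chr7:95639941-95639970: gtgaaaAATAAAacATTAAAaatgctgttt
Why the second probe was dark was not tested.

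Rab27a, the GTPase that recruits the tether to the melanosome, was the other gene of the 9 to pass. Its probe lies on chromosome 9 at 72944668 to 72944727 of mm9, plus strand. The level was -1.40, -1.18 and -1.10 in controls and -2.15, -1.87 and -1.997 after UVB. Every UVB array stood below every control. The log2 fold change was -0.78 ± 0.14 (SE, n = 3 per group, limma adjusted p = 0.0213), which left 58.3% of the control level. The call did not hold with 5 arrays when control replicate 2 (limma adjusted p = 0.0908), control replicate 3 (0.0619), UVB replicate 1 (0.0735) or UVB replicate 3 (0.0508) was left out. With normexp background correction the log2 fold change was -0.42, still called (limma adjusted p = 0.0397). That correction was run with an offset of 50 added to each signal, which draws the fold changes of dim probes toward 0.

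**Figure D2:**
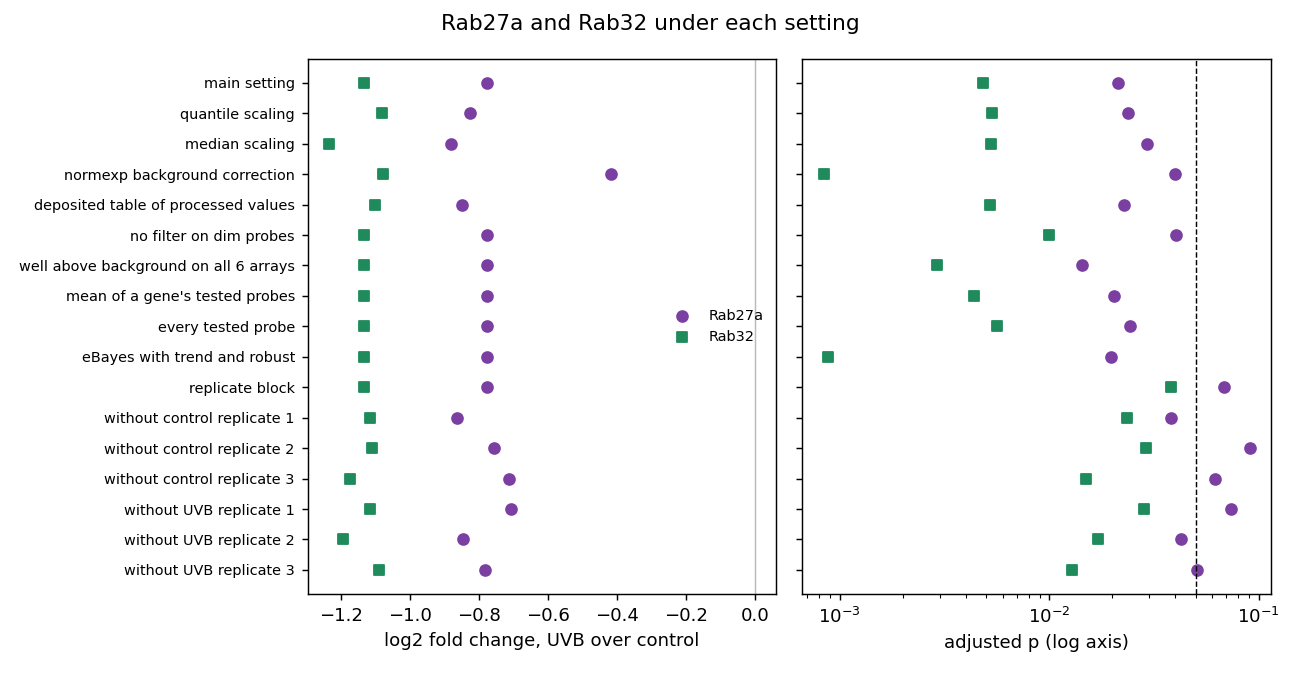
Log2 fold change, UVB over control (left), and limma adjusted p on a log axis (right) of Rab27a (circles) and Rab32 (squares), as reported and under each of the 16 alternatives; the dashed line marks 0.05. All fold changes lie below 0, Rab32 lies left of the line in all, and Rab27a in 11 of the 16 alternatives.

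Myo5a and Sytl2, partners of Rab27a, had positive fold changes that missed the threshold. Myo5a, the motor, was read on chromosome 9 at 75071413 to 75071472 of mm9, at a level of 1.42, 1.41 and 1.85 in controls and 2.21, 1.85 and 2.04 after UVB. The groups touched at control replicate 3 and UVB replicate 2. Its log2 fold change was 0.47 ± 0.18 (95% confidence interval 0.05 to 0.90, limma adjusted p = 0.125).

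Sytl2, which docks melanosomes at the membrane, had the widest spread of the 8 tested genes after UVB. Its probe, on chromosome 7 at 97558507 to 97558566 of mm9, read -2.44, -2.51 and -2.56 in controls and -1.67, -2.23 and -0.85 after UVB. All UVB arrays lay above the controls, which were tightly grouped, while the UVB arrays ran apart by more than a log2 unit. The log2 fold change was 0.92 ± 0.34 (95% confidence interval 0.11 to 1.73, limma adjusted p = 0.122). It came to 0.55 without UVB replicate 3 and 1.24 without UVB replicate 2. Only with normexp correction did it pass, at 0.72 (limma adjusted p = 0.0451).

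Mlph, the linker between Rab27a and the motor, could not be judged. Its only probe, on chromosome 1 at 92845282 to 92845341 of mm9, was not well above background on any of the 6 arrays. Its processed signal was 2.84, 5.15 and 3.24 in controls and 3.15, 3.76 and 5.88 after UVB, overlapping between the groups, and no fold change is given. A transcript below the reach of this probe in either group cannot be told from an absent one.

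Neither subunit of BLOC-3, which activates Rab32 and Rab38, passed the test. Hps4 was measured by 2 adjacent probes on chromosome 5, at 112807315 to 112807374 and 112807375 to 112807434 of mm9. The brighter read 2.75, 2.67 and 2.78 in controls and 2.63, 2.66 and 2.58 after UVB. The UVB arrays lay just below the controls, with a gap smaller than 0.01 at its closest, and the log2 fold change was -0.10 ± 0.11 (95% confidence interval -0.36 to 0.15, limma adjusted p = 0.548). The other probe gave -0.07 ± 0.12.

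Hps1, the other subunit, had 2 probes on chromosome 19 of mm9 that differed in sign. The one at 42830015 to 42830074 read -1.59, -1.74 and -1.60 in controls and -1.66, -2.02 and -2.15 after UVB, with overlap through UVB replicate 1. Its log2 fold change was -0.30 ± 0.16 (95% confidence interval -0.69 to 0.08, limma adjusted p = 0.246). The probe at 42833669 to 42833728 read -2.10, -1.65 and -1.77 in controls and -1.55, -1.92 and -1.81 after UVB, a difference of 0.08 ± 0.17. None of the Hps1 and Hps4 probes passed over the 33763 probes tested, of which 11.2% did. Neither direction is established for Hps1.

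Ap3b1, the AP-3 subunit, was read on chromosome 13 at 95336057 to 95336116 of mm9. Its level was 3.99, 4.19 and 4.32 in controls and 3.88, 4.09 and 3.95 after UVB, with overlap between the groups. The log2 fold change was -0.20 ± 0.14 (95% confidence interval -0.53 to 0.13, limma adjusted p = 0.370). For Hps1, Hps4 and Ap3b1 the intervals exclude a log2 fold change as low as the -1.13 of Rab32, but hold smaller changes of both signs.

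Because Rab32 and Rab27a fell side by side, their promoters were read for E-boxes of the kind bound by MITF, the transcription factor that directs many pigment genes. The letters searched were CACGTG, which is its own reverse complement, and CATGTG, or CACATG on the other strand. RefSeq promoters of build GRCm38.p6, from 250 bases before to 50 bases after a start, were at hand for 7 of the 9 genes, with 9 starts in all. CACGTG stood in 3 of the 9 promoters, against 7.2% of 32851 promoters of that length in mouse, and CATGTG in 1, against 14.2%. Either was found in 3 of the 9 and in 20.4% of all promoters. The promoter of Rab32 held neither, as did that of the first Rab27a start, while that of the second Rab27a start held CACGTG at -246 from the start. Hps1 held both at its first start, CATGTG at -14 and CACGTG at -1, and Mlph held CACGTG at -48. The promoters printed are 4, with these letters in capitals: those of both genes that fell, with each Rab27a start, and that of a gene that holds both motifs and was not called.
Rab32, minus strand, chr10:10558158-10558457: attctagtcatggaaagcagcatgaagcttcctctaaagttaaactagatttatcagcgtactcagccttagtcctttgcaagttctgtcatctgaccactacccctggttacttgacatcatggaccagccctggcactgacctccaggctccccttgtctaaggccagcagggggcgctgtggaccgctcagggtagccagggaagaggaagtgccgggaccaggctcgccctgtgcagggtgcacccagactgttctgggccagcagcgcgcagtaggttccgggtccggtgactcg
Rab27a, first start, plus strand, chr9:73044560-73044859: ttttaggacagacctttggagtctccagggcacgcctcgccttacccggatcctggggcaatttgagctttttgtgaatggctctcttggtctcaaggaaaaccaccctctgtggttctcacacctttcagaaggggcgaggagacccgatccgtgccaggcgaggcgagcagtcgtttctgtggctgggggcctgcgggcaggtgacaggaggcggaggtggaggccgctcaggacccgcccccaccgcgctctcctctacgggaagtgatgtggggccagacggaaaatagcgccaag
Rab27a, second start, plus strand, chr9:73063898-73064197: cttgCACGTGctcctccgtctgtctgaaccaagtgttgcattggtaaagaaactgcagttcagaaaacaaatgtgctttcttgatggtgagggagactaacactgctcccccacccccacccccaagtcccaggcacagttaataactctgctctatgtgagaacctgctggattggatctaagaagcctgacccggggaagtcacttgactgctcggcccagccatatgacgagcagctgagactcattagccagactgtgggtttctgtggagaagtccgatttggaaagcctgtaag
Hps1, first start, minus strand, chr19:42779929-42780228: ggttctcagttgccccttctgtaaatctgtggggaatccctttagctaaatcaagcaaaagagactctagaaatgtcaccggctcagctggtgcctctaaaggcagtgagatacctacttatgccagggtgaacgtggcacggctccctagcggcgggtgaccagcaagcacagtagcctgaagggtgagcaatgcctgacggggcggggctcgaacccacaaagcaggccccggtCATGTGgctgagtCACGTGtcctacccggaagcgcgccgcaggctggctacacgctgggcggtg
A match is a description of the letters and shows no binding.

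The fall of Rab32 and Rab27a stood beside higher levels of melanocyte markers. Of 12 such markers, 11 were tested. Of the 9 that were well above background in both groups, 6 were called higher; Slc45a2 and Oca2, also called, entered the test only through the UVB arrays. Mlana, a melanosome protein, had a log2 fold change of 4.38 ± 0.19, Pmel, the fibril protein, 3.22 ± 0.21, and Tyrp1 and Dct, enzymes of melanin synthesis, 3.45 ± 0.21 and 2.40 ± 0.20 (limma adjusted p = 0.001 to 0.00323). The endothelin receptor Ednrb rose by 0.80 ± 0.12 and the transcription factor Sox10 by 0.53 ± 0.12. Ednrb was not called without control replicate 2 or UVB replicate 1 (limma adjusted p = 0.0524 to 0.0578). Sox10 was called in 6 of 16 alternatives: it was lost with any 1 array left out (0.0502 to 0.122), under median scaling (0.0907), with no filter on dim probes (0.0698) and with trend and robust eBayes (0.0621), as well as with the replicate block. The melanosome transporters Slc45a2 and Oca2 were too dim to measure on all 3 control arrays. With controls raised to the lowest signal well above background on their array, Slc45a2 was 3.80-fold higher after UVB and Oca2 3.78-fold. Normexp, with its offset of 50, gave fitted values of 2.16-fold and 2.08-fold, so the size of either rise is not fixed. Tyr (0.61 ± 0.54), Mitf (0.06 ± 0.30) and Kit (-0.02 ± 0.30) were not called, and Gpr143 was not tested.

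**Figure D3:**
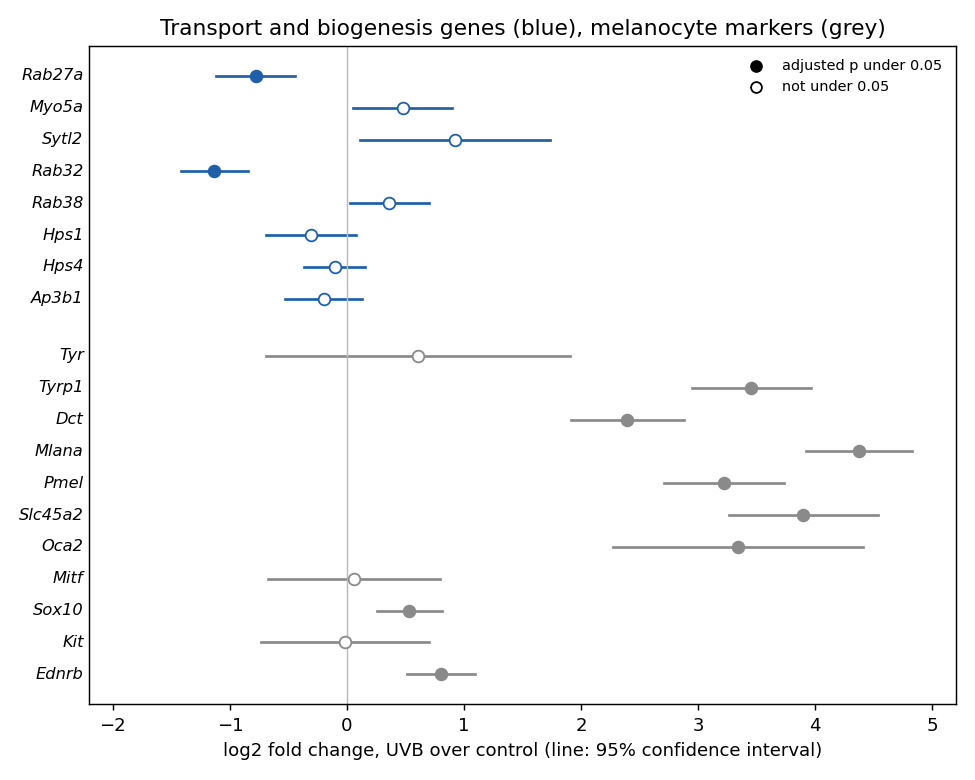
Log2 fold change, UVB over control, with its 95% confidence interval as a line, for the 8 tested transport and biogenesis genes (blue) and the 11 tested melanocyte markers (grey); filled points passed an adjusted p under 0.05, and the fitted values of Slc45a2 and Oca2 rest on controls at background. The called markers lie to the right of 0 and the called transport genes, Rab32 and Rab27a, to the left.

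The level of each cell type's markers, summed and given as times the 75th percentile, served to describe the arrays. Bright probes weigh most in such a sum, so where its values are given the marker with the largest share in controls is named. The melanocyte sum was 6.52 to 7.54 in controls and 20.2 to 30.1 after UVB. Mitf, which was not called, held 47.2% to 52.4% of it in controls, and the other markers went from 3.21 to 3.59 up to 17.6 to 27.1. The growing hair follicle sum was 16.0 to 19.2 in controls and 262 to 985 after UVB. Krt85, not called, held 84.9% to 94.7% of it in controls, and the others went from 1.02 to 2.42 up to 250.2 to 976. Of the 6 follicle markers 5 were called higher; Krt33b among them was well above background on 0 of 3 control arrays and so was tested only through the UVB arrays, which leaves 4.

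Immune markers stood lower in several lists. The T cell sum, with 5 of 6 markers lower, was 15.6 to 20.9 in controls and 7.69 to 9.68 after UVB. Cd3e held 44.6% to 46.9% of it in controls. The Langerhans and dendritic cell sum, with 3 of 4 lower, was 55.6 to 57.3 and 22.3 to 29.97. Cd74 held 66.6% to 76.8% of that sum in controls. Of the 4 cytotoxic cell markers, the granzymes Gzma and Gzmb were higher and Nkg7 lower. Prf1, the pore protein perforin, lay below all controls and was not called (log2 fold change -0.62 ± 0.22, limma adjusted p = 0.115). The cytotoxic sum, of which Nkg7 held 82.3% to 85.7% in controls, was 6.51 to 7.56 in controls and 4.62 to 5.64 after UVB. The neutrophil sum, from S100a8 and S100a9, neither called, was 25.4 to 69.1 and 80.7 to 155. S100a9 held 76.2% to 78.6% of it in controls. Ly6g was not on the array and Mpo was not tested, so that sum rests on S100a8 and S100a9 alone.

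Other lists also separated the groups. The Schwann cell sum was 8.08 to 9.17 in controls and 4.38 to 5.68 after UVB, with Mbp, the 1 marker of 4 called lower (log2 fold change -0.78 ± 0.15), holding 94.98% to 97.2% of it in controls. The adipocyte sum was 0.22 to 0.89 and 5.68 to 28.0, through Fabp4 (log2 fold change 4.80 ± 0.77), which held 76.7% to 94.9% of it in controls. Adipoq and Plin1 were not tested and Lep was not called (limma adjusted p = 0.311), so the higher sum rests on Fabp4 alone. Keratinocyte markers summed to 1815 to 2141 and 2298 to 2725, and endothelial ones to 9.08 to 10.5 and 11.3 to 13.9, with 0 of 4 and 0 of 3 called by limma and 2 and 0 higher at an unadjusted p under 0.05. The mast cell and skeletal muscle sums overlapped between the groups. The part of these cell types in the fall of Rab32 and Rab27a was not tested.

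The other genes of melanosome biogenesis and transport, 62 by a list drawn up for this comparison, changed at about the rate of all targets. Of 61 tested, 2 were higher and 6 lower, or 13.1% called, against 12.6% of all targets. Their groups did not overlap in 36.1%, against 38.5% of all targets, and the median log2 fold change was -0.01. By role, 3 of 7 tested effectors of Rab27 and 2 of 4 genes of AP-1 and its kinesin were lower, while the 32 tested genes of BLOC-1, BLOC-2, the other AP-3 subunits, HOPS, the SNAREs and the Rab regulators held 0 calls by limma (2 higher and 2 lower at an unadjusted p under 0.05). Over all targets, 7.01% were lower. Of these effectors, Rph3al was lower by only 1 of its 2 tested probes, and the kinesin, Kif13a, was not called with any 1 array left out. With counts this small no test of these roles was made.

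**Figure D4:**
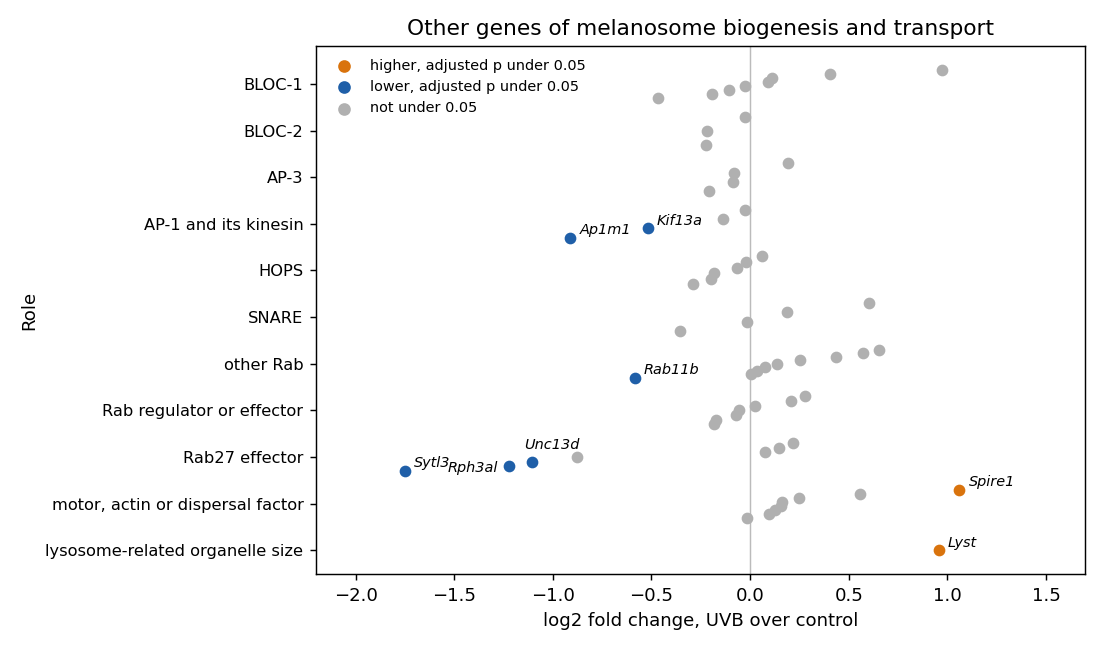
Log2 fold change, UVB over control, of the 61 tested other genes by role in the pathway, with the 8 that passed an adjusted p under 0.05 coloured and named. The lower calls are among the Rab27 effectors, AP-1 with its kinesin and the other Rab genes, and the higher calls are Spire1 and Lyst.

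Among the effectors, Sytl3, a synaptotagmin-like protein that binds Rab27, showed the deepest fall. Its level was -0.65, -0.88 and -0.69 in controls and -2.60, -2.51 and -2.38 after UVB, a log2 fold change of -1.75 ± 0.13 (limma adjusted p = 0.00252), and -1.06 with normexp. Unc13d, which primes lytic granules in cytotoxic cells, read 1.90, 1.83 and 1.94 against 0.60, 0.66 and 1.08, a log2 fold change of -1.11 ± 0.16 (limma adjusted p = 0.0115). The groups were apart for each gene, and both genes passed with any 1 array left out. Rph3al, another effector, had a log2 fold change of -1.22 ± 0.17 (limma adjusted p = 0.0113) by its brightest probe, but the mean of its probes gave -0.17 (limma adjusted p = 0.667). Of its 2 tested probes only 1 had a negative fold change, so its fall rests on 1 probe and its direction is not established. Rph3al was also not called without control replicate 2 (0.0537).

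Ap1m1, an AP-1 subunit, had a log2 fold change of -0.91 ± 0.13 (limma adjusted p = 0.0107), and was not called without control replicate 2 (0.0543). Kif13a, the kinesin that AP-1 uses to bring cargo to melanosomes, had -0.52 ± 0.12 (limma adjusted p = 0.0413), and Rab11b, a GTPase of recycling endosomes, -0.59 ± 0.13 (0.0335). Kif13a was not called with any 1 array left out (limma adjusted p = 0.0674 to 0.134), and also missed with all arrays under quantile scaling (0.0529), with the deposited table (0.0503) and with no filter on dim probes (0.0804). Rab11b was called with 5 arrays only without UVB replicate 2 (0.0814 to 0.105 otherwise), and missed with no filter (0.0647). Spire1, an actin nucleator that works with formins, rose by 1.06 ± 0.18 (limma adjusted p = 0.0178) and was not called without control replicate 2 or UVB replicate 1 (0.0653 to 0.0719). Lyst, the regulator of lysosome size mutated in beige mice, rose by 0.96 ± 0.20 (limma adjusted p = 0.0299) and was called only without control replicate 3 among 5-array fits (0.0644 to 0.109 otherwise), and missed under median scaling (0.0540). Only the falls of Sytl3 and Unc13d thus passed with every array left out in turn.

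Some paralogues and partners moved apart within the same arrays. The following pairs were picked after their values were seen and carry no test. The log2 ratio of Rab38 to Rab32, set to 0 for the mean of the controls, ran from -0.16 to 0.22 in controls and from 1.45 to 1.55 after UVB. Rab27b, the close relative of Rab27a, read 2.91, 3.15 and 3.22 in controls and 3.48, 3.83 and 3.67 after UVB, a log2 fold change of 0.57 ± 0.15 that was not called (limma adjusted p = 0.0567). The ratio of Rab27b to Rab27a ran from -0.01 to 0.01 in controls and from 1.31 to 1.38 after UVB. The ratio of Myo5a to Rab27a ran from -0.19 to 0.16 and from 0.93 to 1.58. Each ratio cancels the scaling of its array. Rab38 and Rab27b lay above all their controls and Rab32 and Rab27a below theirs, so the ratios of these paralogues had to separate.

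**Figure D5:**
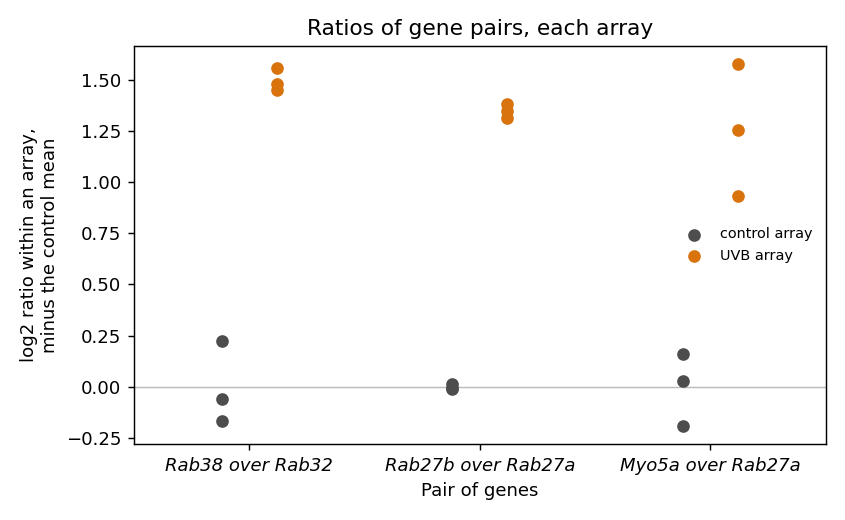
Log2 ratio of Rab38 to Rab32, Rab27b to Rab27a and Myo5a to Rab27a on each array, relative to the mean of the 3 controls. Points are single mice. Every UVB array stands above every control array for the 3 pairs, which were chosen after their values were seen. For Rab38 to Rab32 and Rab27b to Rab27a that follows from the levels of the single genes.

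Over the 6 arrays, the genes most like Rab32, the member with the smallest p, were Cntn1 (Pearson r = 0.999, log2 fold change -1.08), Casp9 (0.999, -0.51) and Sf3b3 (0.998, -0.34, not called). Such likeness is common here: 1127 of 15920 named genes had r over 0.95 with Rab32, since 6 arrays in 2 groups share the difference between the groups.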

How the data were processed

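RNA of back skin from 6 mice, 3 per group by the titles, was read on 1-colour Agilent arrays, starting from 0.2 µg per the labels. Agilent Feature Extraction 10.7.1.1 gave the intensity of each spot, per the submitters' processing notes. The authors also deposited a table of log2 values with a median of 4.95 in each column. Set against log2 signals of the matching array, each column had r of 0.998663 to 0.999966. Sorted, its columns differ by no more than 7.44e-05 at nearly all ranks, as after quantile normalization. As an alternative the deposited table is thus not independent of quantile scaling. Its other steps are not stated in the labels.

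Processed intensities as deposited were put on the log2 scale and each array's 75th percentile over non-control spots (302 to 519) was subtracted. Spots with outlier flags (135 to 274 per array) were left out and spots of a probe averaged. A probe was tested if well above background on at least 3 of 6 arrays. The tested probe with the highest mean stood for a gene. Of 55681 probes, 26582 were named by RefSeq accession and 3094 by symbol; the others kept the name in the files. The groups were compared in limma 3.58.1 (R 4.3.3), two-sided and without covariates, and errors of fold changes are its standard errors. For a marker at background on all control arrays, the UVB mean was set against a raised control mean. Per array, that mean takes the higher of the marker's own signal and the lowest of any probe well above background. The resulting fold is not a strict bound. The rule for named genes took every one of the 9 genes, the called genes of the pathway list, the 3 genes most like the one with the smallest p, and the melanocyte markers. Rab27b was chosen after its values were seen. The genes, lists and rules were chosen with earlier results of these data known. Only the limma fit was run on simulated data with known changes. The signs of calls and the recovery of the larger changes were checked there, and no limit was set on false calls. Probe positions are those in the files, in mm9, whose exon annotation was not used here. Replicate numbers did not pair the arrays: same-numbered arrays deviated from their group means with correlations of -0.26 to -0.08.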

Additional observations from a re-analysis of the deposited data

How the results depend on the processing

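Under the 16 alternatives all 8 tested members kept their sign, Rab32 was called lower in each, and Rab27a in 11. Several alternatives refitted the same values with another filter or error model, so the sign could not change in them. Members called lower numbered 2 as reported, 1 with the replicate number as a block, and 1 to 2 with 1 array left out; members called higher numbered 0, and 1 with normexp (Sytl2). With the replicate block Rab27a had a limma adjusted p of 0.0686. The numbers do not pair the mice, so that fit says nothing of effect size. Pathway genes called higher numbered 2, with 1 under median scaling, 4 with normexp, 4 with the mean of a gene's probes, 4 with trend and robust eBayes, 0 with the replicate block, and 0 to 2 with 1 array left out. Pathway genes called lower numbered 6, with 1 under the replicate block and 2 to 5 with 1 array left out. Over all targets, 3058 calls became 5037 with normexp, 773 with the replicate block and 859 to 1907 with 1 array left out. Fewer arrays were then fitted; the cause of the other shifts was not tested. The median log2 fold change of all targets went from -0.04 to -0.14 with median scaling and 0.08 with normexp, and the share of calls that were higher from 44.2% to 35.4% with median scaling and 61.1% with the replicate block. No slide or scan-time block was possible, since all arrays shared 1 slide and 1 scan time. Signal over background limits Mlph and the dim Rab38 probe.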
